A study of Drosophila melanogaster with 6 samples.

Results

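The miR-972 to miR-979 cluster is a group of 8 miRNA precursors, dme-mir-972 to dme-mir-979, on the X chromosome of *Drosophila melanogaster*. Its members were taken by precursor name, both arms of each, which gave 16 of the 474 entries and 8 of the precursors in a count table of fly ovary miRNAs. The table names each entry by a mature miRNA and its precursor, and in all it held 256 precursors. The libraries came from ovaries of adult flies 7 days old, raised at 25 °C, 2 libraries for each of 3 genotypes. One tested genotype was wh7, a mutation of wuho, whose WD40 repeat protein is needed for germline development. The other was mei-p26, a mutation of mei-P26, whose TRIM-NHL protein limits the growth of germline cells and works with the miRNA pathway. The control, w1118, was also the background strain given for both mutants. The labels do not say whether the mutants were homozygous, how many flies a library held, or whether replicates came from separate flies, so each p-value reflects library-to-library spread alone, and that spread may be technical.

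A miRNA is cut from a hairpin precursor, and either the 5p or the 3p arm of the hairpin can be loaded into an Argonaute protein to repress messenger RNAs that pair with its seed. Precursors that lie close together on 1 strand are often carried on a common primary transcript and then rise and fall together. The miR-972 to miR-979 cluster is one of several X-linked fly clusters known for testis-enriched expression and for rapid sequence turnover.

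In a later genome release than the one named for these files (BDGP6, of which only names and order are used), all 8 precursors lay on the plus strand in numerical order. dme-mir-972 to dme-mir-977 came first and dme-mir-978 and dme-mir-979 came last. The last pair lay inside Grip84, a protein-coding gene on the opposite strand whose product is a subunit of the gamma-tubulin complex. Of the 6 annotated Grip84 isoforms, 1 had dme-mir-978 opposite its 3′ UTR, and it lay outside the other 5. dme-mir-979 lay opposite an intron in 5 isoforms and opposite the 3′ UTR in 1. Further precursors, mir-9369, mir-2499 and 2 copies of mir-4966, were annotated between the members.

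The 6 libraries held 149520 and 228031 counts in wh7, 229276 and 249262 in mei-p26, and 152848 and 144175 in w1118. A count of 0 in 1 library allows up to 3 counts, or as much as 20.8 CPM (counts per 1e6 counts of the library) in the shallowest library, and these limits and the 95% intervals below cover counting error only. The cluster was sparse at this depth. In all it drew 115 counts, and 9 of its 16 arms (56.2%) had a count in at least 1 library, against 286 of all 474 entries (60.3%). No count was seen on either arm of dme-mir-973 or dme-mir-975, nor on miR-972-5p, miR-974-5p or miR-976-5p. Of the 115 counts, dme-mir-978 held 83 and the other 7 precursors together 32. Levels in CPM below are relative to library totals after TMM scaling, and compare miRNAs by counts, which also depend on how well each sequence takes up adaptors.

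dme-mir-978 was the member that stood out in the control ovary, and it was nearly missing from both mutants. Its 3p arm had 2 and 0 counts in wh7, 2 and 4 in mei-p26, and 30 and 26 in w1118. In CPM these were 13.6 and 0 in wh7, 8.19 and 13.9 in mei-p26, and 224 and 186 in w1118. Every library of both mutants lay far below both control libraries, and the wh7 library with no count was deeper than either control library. In the control, miR-978-3p ranked 88th of 199 and 96th of 192 entries with a count, a middling position. It ranked 158th of 212 in the wh7 library where it was seen, and 174th of 220 and 164th of 224 in the mei-p26 libraries.

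**Figure D1:**
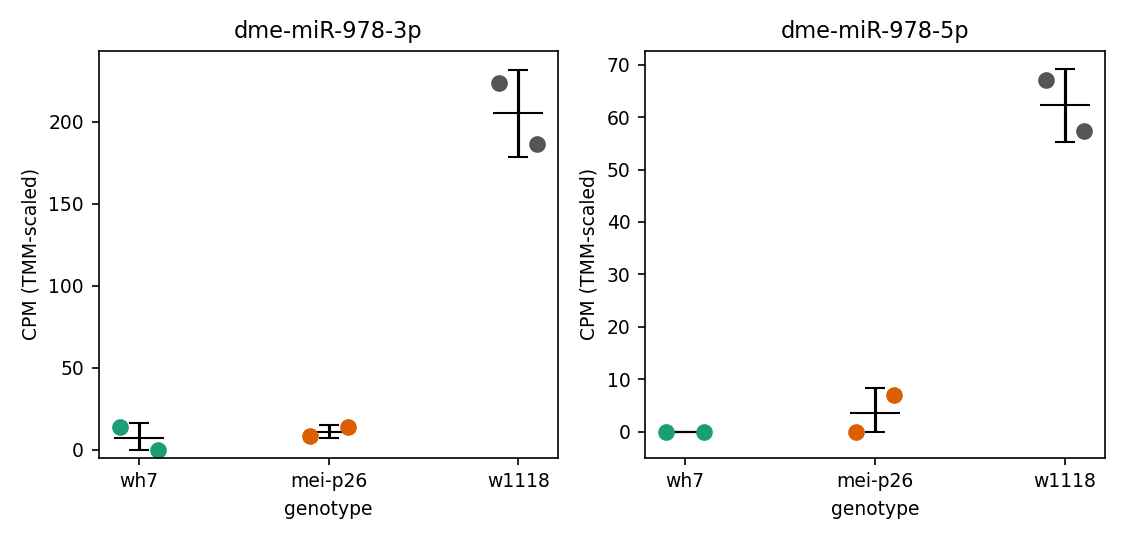
TMM-scaled CPM of the 3p arm (left) and the 5p arm (right) of miR-978 in wh7, mei-p26 and w1118 ovaries. Points are libraries, bars the mean and error bars 1 SD of 2 libraries, cut at 0; on the 3p arm the mutant libraries sit at 13.9 CPM or less and the w1118 libraries at 186 and 224 CPM.

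In wh7 ovaries miR-978-3p averaged 6.82 ± 9.65 CPM, against 205 ± 26.6 CPM in w1118 (SD, n = 2 each). From the summed counts, 2 in wh7 and 56 in w1118, it was 37.8-fold lower in wh7, with a 95% counting interval of 9.98 to 319. The edgeR quasi-likelihood test gave a log2 fold change of -5.06 ± 0.87 (SE, adjusted p = 0.000301). In mei-p26 ovaries the same arm averaged 11.02 ± 4.02 CPM, against 205 ± 26.6 CPM in w1118. That was a log2 fold change of -4.12 ± 0.72 (adjusted p = 0.000150), and the summed counts of 6 in mei-p26 and 56 in w1118 gave an 18.2-fold lower level, with an interval of 7.85 to 51.6. Both calls were kept with any 1 of the 6 libraries left out, where a group left with 1 library is assumed to vary like the others, but the size in wh7 was -8.55 without wh7 replicate 1 and -3.81 without wh7 replicate 2.

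The 5p arm was lower still in number and followed the 3p arm. It had 0 and 0 counts in wh7, 0 and 2 in mei-p26, and 9 and 8 in w1118. Against a count of 3, the most that the empty wh7 group allows, miR-978-5p was at least 7.64-fold lower in wh7 than in w1118. The exact 95% interval, which also takes in the counting error of the 17 control counts, begins at 5.56-fold lower. The edgeR test passed with an adjusted p of 0.00488. In mei-p26 it was 16.6-fold lower than in w1118 by summed counts of 2 and 17, with an interval of 3.93 to 148. The edgeR log2 fold change there was -3.85 ± 1.00 (adjusted p = 0.00470). With so few counts the 5p calls were less secure than those of the 3p arm. The wh7 call was lost without wh7 replicate 1 (adjusted p = 0.227), the mei-p26 call was lost with DESeq2 (adjusted p = 0.0597), and without any 1 of the other 5 libraries the arm no longer passed the filter on low counts.

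That filter asked for about 52.5 CPM in at least 2 libraries and was passed by 150 entries, among them 2 of the 16 member arms. Both were arms of miR-978 and passed through the w1118 libraries alone, so that both being lower in the mutants is not by itself support. In the filtered fit 4% of entries were called lower in wh7 than in w1118, 6 of 150, and 12.7% lower in mei-p26 than in w1118, 19 of 150. The median log2 fold change over the 150 was 0.08 in either mutant. Without any filter, 286 entries were tested, and 1.75% were called lower in wh7 and 7.34% lower in mei-p26. Both miR-978 arms were called there too, the 3p arm at adjusted p of 2.40e-08 in wh7 and 1.67e-08 in mei-p26, and the 5p arm at 0.00133 and 0.00247 (edgeR in each case). The 3p log2 fold changes there, -5.07 ± 0.81 in wh7 and -4.15 ± 0.67 in mei-p26, were close to those of the filtered fit. Its smaller p-values thus reflect a spread pooled more strongly over entries, not stronger evidence from 2 libraries a group.

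**Figure D2:**
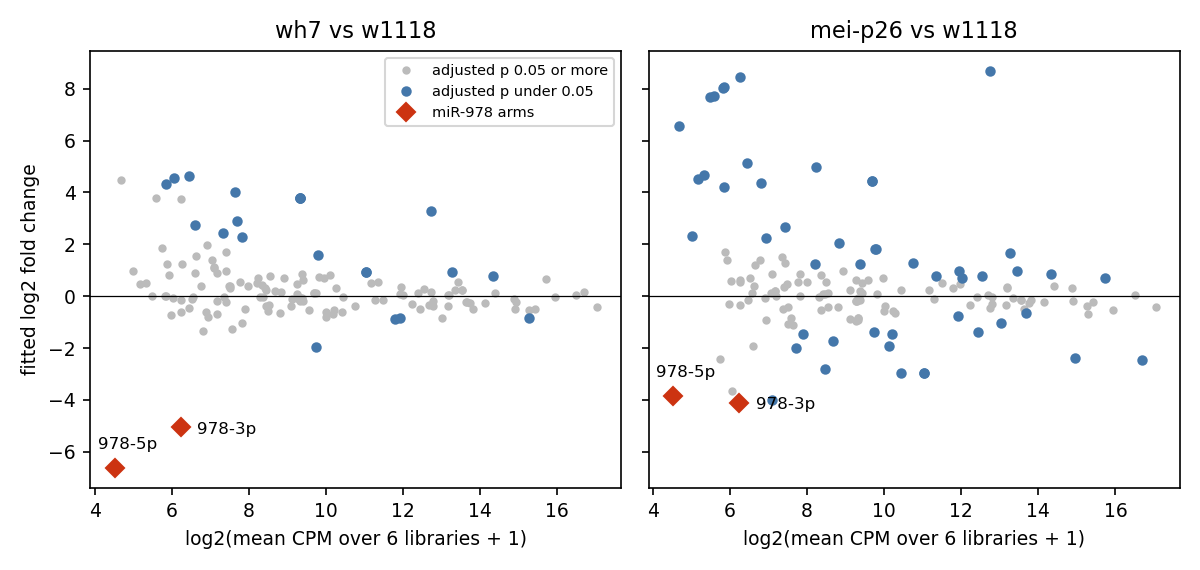
Fitted edgeR log2 fold change against log2(mean TMM-scaled CPM over 6 libraries + 1) for 150 entries, in wh7 over w1118 (left) and mei-p26 over w1118 (right). Both comparisons use the same w1118 libraries. Red diamonds are the miR-978 arms, which rank 1 and 2 from the lowest on the left, and 1 and 3 on the right. The fitted value of an arm with 0 counts in a group, as the 5p arm in wh7, depends on the prior count.

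Adding both arms gave the precursor more counts per test. The fit of summed precursors took the spread as common to all precursors, which makes its p-values small beside those of the arms. dme-mir-978 had 2 and 0 counts in wh7, 2 and 6 in mei-p26, and 39 and 34 in w1118. The summed level was 6.82 ± 9.65 CPM in wh7, 14.5 ± 8.92 CPM in mei-p26, against 267 ± 33.6 CPM in w1118. In a table of summed precursors, of which 99 were tested, its log2 fold change was -5.47 ± 0.88 in wh7 (edgeR, adjusted p = 4.20e-08) and -4.01 ± 0.70 in mei-p26 (adjusted p = 1.82e-07). Among these summed precursors, 6.06% were called lower in wh7 and 15.2% lower in mei-p26. These calls passed under each of 14 alternatives that gave a value, with adjusted p of at most 0.00711 in wh7 and 0.000273 in mei-p26. The log2 fold change in wh7 was -8.75 without wh7 replicate 1 and -4.26 without wh7 replicate 2, and in mei-p26 it ran from -4.89 to -3.48 over the alternatives. Because both comparisons share the w1118 libraries, low levels in both mutants are not separate observations of the control. dme-mir-978 also passed the filter through the w1118 libraries alone, so that its being lower in the mutants is not by itself support. Without a filter its log2 fold change was -5.37 in wh7 and -4.05 in mei-p26, called lower in both. There 1.74% of 172 precursors were called lower in wh7 and 7.56% in mei-p26.

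The mutants were not told apart by miR-978. The summed 3p counts were 6 in mei-p26 and 2 in wh7. Their depth-scaled ratio was 2.08, with a 95% counting interval of 0.371 to 21.04 (edgeR log2 fold change 0.94 ± 1.21, adjusted p = 0.639), and the sign of this difference turned without wh7 replicate 2, to -0.31. For both arms together the ratio was 2.77, with an interval of 0.553 to 26.8 (adjusted p = 0.399). Of the 150 entries 27.3% were called between the mutants in either direction, and of the 99 summed precursors 37.4%. Both intervals span lower as well as higher levels in mei-p26 than in wh7, so at this depth a difference between mei-p26 and wh7 was not detectable rather than shown to be absent.

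The balance between the arms of miR-978 could be read mainly in the control. In w1118, 30 of 39 and 26 of 34 counts came from the 3p arm, 76.9% and 76.5%, with exact binomial intervals of 60.7 to 88.9% and 58.8 to 89.3%. The shares of both replicates lay well inside each other's interval. In mei-p26, 2 of 2 and 4 of 6 counts were 3p, or 75.0% over both libraries with an interval of 34.9 to 96.8%, and in wh7 both of the 2 counts were 3p. These intervals are too wide to tell whether the arm balance differed between genotypes.

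The other 7 precursors did not share the level of dme-mir-978. Together they had 2 and 1 counts in wh7, 4 and 17 in mei-p26, and 4 and 4 in w1118. In CPM these sums were 13.6 and 4.50 in wh7, 16.4 and 58.9 in mei-p26, and 29.9 and 28.7 in w1118. Both wh7 libraries lay below both w1118 libraries, while 1 mei-p26 library lay below them and the other above. By summed counts, 3 in wh7 and 8 in w1118, their ratio of wh7 to w1118 was 0.278, with an interval of 0.0475 to 1.16 that includes no change. In mei-p26 their ratio to w1118 was 1.35, with an interval of 0.573 to 3.52. In mei-p26 against wh7 the ratio was 4.85, with an interval of 1.45 to 25.4, and mei-p26 replicate 2 held 17 of the 21 mei-p26 counts behind it. The sum was under the filter on low counts. In the fit of summed precursors without a filter, its adjusted p was 0.460 in wh7 against w1118, 0.711 in mei-p26 against w1118 and 0.135 between the mutants, where 14.5%, 20.9% and 20.9% of 172 precursors were called in either direction.

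**Figure D3:**
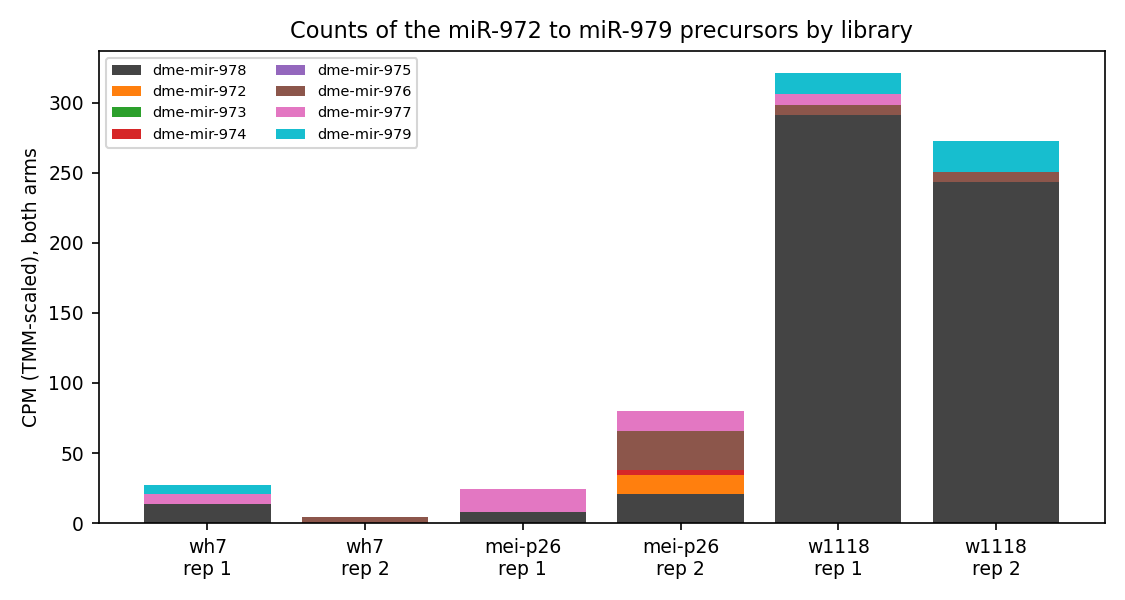
TMM-scaled CPM of each precursor of the cluster, both arms added, stacked in each of the 6 libraries in the order wh7, mei-p26, w1118. dme-mir-978 fills most of the w1118 bars, and dme-mir-972, dme-mir-976 and dme-mir-977 fill most of the bar of mei-p26 replicate 2; dme-mir-973 and dme-mir-975 had no counts.

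Set inside each library, where scaling plays no part, dme-mir-978 gave 2 of 4 and 0 of 1 cluster counts in wh7, 2 of 6 and 6 of 23 in mei-p26, and 39 of 43 and 34 of 38 in w1118. The share was 26.1% in the richer mei-p26 library (exact binomial interval 10.2 to 48.4%), and 90.7% (77.9 to 97.4%) and 89.5% (75.2 to 97.1%) in the w1118 libraries. Over both libraries of a genotype it was 40.0% in wh7 (5.27 to 85.3%), 27.6% in mei-p26 (12.7 to 47.2%) and 90.1% in w1118 (81.5 to 95.6%). The w1118 interval lay above that of mei-p26 and overlapped that of wh7, where only 5 counts were available.

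The log2 ratio of dme-mir-978 to the other members, with a pseudocount of 1, averaged -0.50 ± 0.71 in wh7, -1.05 ± 0.44 in mei-p26 and 2.90 ± 0.14 in w1118 (SD, n = 2 each). No library of either mutant reached the w1118 libraries on this ratio, but the pseudocount caps it where cluster counts are few. With 4 and 1 cluster counts, neither wh7 library could have reached them. With 6 cluster counts, mei-p26 replicate 1 could at most have equalled w1118 replicate 2. The difference was -3.40 in wh7 and -3.95 in mei-p26, each with p = 0.333 in a two-sided exact permutation test, which is the smallest p that 2 libraries against 2 allow. It kept its sign and was -2.90 or lower in wh7 and -3.64 or lower in mei-p26 under every alternative tried (another pseudocount, 3p arms alone, and each library left out). In wh7 the permutation p and the sign under every alternative were fixed in advance by the few counts and are no support. The same holds for the sign in mei-p26 without mei-p26 replicate 2. Between mei-p26 and wh7 the ratio differed by -0.55 (exact permutation p = 0.667).

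**Figure D4:**
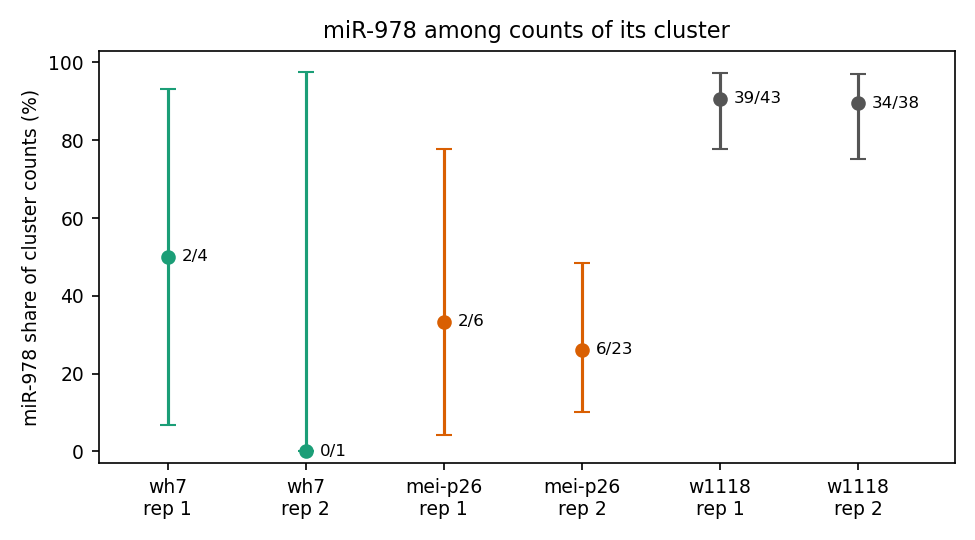
Share of cluster counts that came from dme-mir-978 in each library, in percent, with exact 95% binomial intervals; the labels give miR-978 counts over cluster counts. Both w1118 libraries are near 90% and all 4 mutant libraries at 50% or less, with intervals that are wide where a library had few counts.

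Among the other members, dme-mir-976 and dme-mir-977 had the most counts. miR-976-3p had 0 and 1 counts in wh7, 0 and 8 in mei-p26, and 1 and 1 in w1118. miR-977-3p had 1 and 0 counts in wh7, 4 and 3 in mei-p26, and 1 and 0 in w1118. The mei-p26 libraries held the highest values of both arms, but for miR-976-3p in 1 library only. The ratio of mei-p26 to w1118 was 2.05 for miR-976-3p, with an interval of 0.410 to 19.8, and 3.59 for miR-977-3p, with an interval of 0.462 to 162, and both include no change. miR-979-5p had 1 and 0 counts in wh7, 0 and 0 in mei-p26, and 1 and 2 in w1118, and miR-979-3p had 0 in all 4 mutant libraries and 1 in each w1118 library. miR-972-3p had 4 counts, all in mei-p26 replicate 2, and miR-974-3p and miR-977-5p had 1 count each, in that same library. In the edgeR fit without a filter 8.04% of 286 entries were called in either direction in wh7 against w1118, 18.9% in mei-p26 against w1118 and 17.8% between the mutants. Of the 7 detected arms outside dme-mir-978, 0 passed there in any comparison, 0 had an unadjusted p under 0.05 there, and none passed the filter on low counts.

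Position along the cluster went with where the counts fell, a grouping made after the values were seen and therefore given without a test. dme-mir-972 to dme-mir-977 together had 1 and 1 counts in wh7, 4 and 17 in mei-p26, and 2 and 1 in w1118. The pair inside Grip84, dme-mir-978 and dme-mir-979, had 3 and 0 in wh7, 2 and 6 in mei-p26, and 41 and 37 in w1118. So 21 of 26 counts of the first 6 precursors were in mei-p26 libraries, and 78 of 89 counts of the last pair in w1118 libraries. Of all 1153112 counts of the series, the mei-p26 libraries held 478538 and the w1118 libraries 297023. The grouping leans on 1 library and 1 member, as mei-p26 replicate 2 held 17 of the 21 and dme-mir-978 73 of the 78. dme-mir-979 alone had 5 of its 6 counts in w1118. Of the precursors annotated between the first 6 members that are not members themselves, a pair had counts, and these counts were in the mei-p26 libraries, the deepest of the series. The depth of mei-p26 replicate 1, 229276 counts, was close to that of wh7 replicate 2, 228031 counts. dme-mir-9369 had 0 and 0 counts in wh7, 1 and 4 in mei-p26, and 0 and 0 in w1118. dme-mir-4966, entered once in the table, had 0 and 0 in wh7, 7 and 6 in mei-p26, and 0 and 0 in w1118. dme-mir-2499 had no counts.

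Other miRNA groups of the same table gave other counts, the testis-enriched miR-982 to miR-984 and miR-959 to miR-964 groups among them. These counts are to be read against the 21.3% of the 150 entries called higher in mei-p26 and the 11.3% called higher in wh7. In mei-p26 against w1118, all 8 tested entries of the miR-982 to miR-984 group, which includes miR-303, rose, with a median log2 fold change of 4.59. The whole group was at 107.5 to 201.5 CPM in w1118 and 175.5 to 218.3 CPM in wh7, against 3221 to 4509 CPM in mei-p26. Its entries could thus pass the filter through mei-p26 alone, so that their rise is not by itself support. Of the miR-310 to miR-313 group, counted with miR-2498, miR-991 and miR-992, 10 of 11 entries rose, with a median of 2.06. That median joins unlike parts. The tested entries of miR-991, miR-992 and miR-2498 were at 7.68 to 8.70, and those of miR-310 to miR-313 at 0.56 to 2.06. No counts of miR-991-5p, miR-992-3p or miR-992-5p were seen in wh7 or w1118. These arms passed the filter through mei-p26 alone, so that their rise is not by itself support. Their fitted values depend on the prior count. Of miR-959 to miR-964, 0 of 7 tested entries passed, with a median of 0.64. In wh7 against w1118 the same groups had 0 of 8, 1 of 11 and 0 of 7 entries higher and 0 lower, with medians of 0.49, 0.06 and -0.04. The miR-991 and miR-992 arms without counts in wh7 and w1118 are among the 11. They could not be called there and enter the median at 0. These counts describe the groups beside miR-978, and the difference between them and miR-978 was not tested. Some of these entries are near-identical copies, such as both miR-983 precursors, whose reads cannot be assigned to 1 copy, and the same holds for the miR-281 precursors below.

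Markers of other cell types were set beside these levels, with the same shares of the 150 entries as background (11.3% higher and 4% lower in wh7, 21.3% higher and 12.7% lower in mei-p26). In bulk ovary RNA fewer cells of a type and less RNA per cell cannot be told apart. The follicle cell miRNAs miR-318, miR-994 and miR-989 were summed. Their level was 304471 to 332029 CPM in wh7, 135313 to 177252 CPM in mei-p26, against 316386 to 379675 CPM in w1118. Of the 5 tested entries 0 were called in wh7 and 3 were called lower in mei-p26. These were miR-994-3p, miR-318-3p and miR-994-5p, at log2 fold changes of -2.94, -2.47 and -2.40. The fall did not extend to miR-989 in mei-p26. Its 3p arm was at -0.40 and its 5p arm at 1.20 (edgeR, adjusted p = 0.189 and 0.157). The gut and Malpighian tubule miRNA miR-281 was at 3936 to 4671 CPM in wh7, 237 to 308 CPM in mei-p26, against 2112 to 2350 CPM in w1118, with 2 of 3 tested entries called higher in wh7 and 3 lower in mei-p26. The muscle miRNAs miR-1 and miR-133 were at 23097 to 24078 CPM in wh7, 22600 to 27607 CPM in mei-p26, against 10993 to 16861 CPM in w1118. Their sum was higher in all 4 mutant libraries. Both tested entries were arms of miR-1, of which miR-1-3p was called higher in each mutant and miR-1-5p in neither. miR-133 did not pass the filter on low counts. The nervous system miRNAs miR-124, miR-137, miR-210 and miR-219 had at most 54.6 CPM together, and miR-124 was at 0 in all 6 libraries. The miRNAs listed for the germline were bantam, miR-7 and miR-184. Together they were at 60600 to 68150 CPM in wh7, 63648 to 68818 CPM in mei-p26, against 72785 to 92978 CPM in w1118. This sum was lower in all 4 mutant libraries, but whether it follows the amount of germline was not tested. Of its 6 tested entries 0 were called in wh7, and 1 was called higher and 1 lower in mei-p26. The part of these cell types in the level of miR-978 was not tested.

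Over the 6 libraries, the pattern of miR-978-3p on the log2 CPM scale was most like that of let-7-5p (Pearson r = 0.967), miR-995-5p (0.961), miR-996-3p (0.921), miR-79-3p (0.889) and miR-190-5p (0.833), leaving out its own 5p arm (0.973). The points share libraries, depth and scaling, and r ignores the size of a change. The resemblance was one of shape alone. let-7-5p, a regulator of developmental timing, had 1241 and 1830 counts in wh7, 2092 and 2496 in mei-p26, and 1390 and 1551 in w1118, with log2 fold changes of -0.36 in wh7 and -0.32 in mei-p26. miR-995-5p had 20 and 23 counts in wh7, 39 and 46 in mei-p26, and 44 and 35 in w1118, with log2 fold changes of -1.28 and -0.86. None of these 5 passed the edgeR test in any comparison, and the adjusted p nearest to the threshold was 0.0812, for miR-995-5p in wh7.

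The authors' deposited table gave miR-978-3p signed fold changes of -28.1 in wh7 and -15.2 in mei-p26, where a negative sign means lower than in w1118, with adjusted p-values of 0.000722 and 0.000271. For miR-978-5p the authors' deposited table gave an adjusted p of 0.0258 in wh7 and of 0.114 in mei-p26, so that the 5p arm in mei-p26 passed the edgeR test here and not the authors' test. For the detected arms of the other members the adjusted p-values in the authors' deposited table ran from 0.760 to 0.973.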

How the data were processed

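Small RNA libraries were prepared with a kit that ligates adaptors to both RNA ends and adds molecular identifiers during cDNA synthesis, per the labels' protocols. The submitters' processing notes name bcl2fastq 2.20, Trimmomatic and the BDGP5 build. For the aligner, the counting step, strand handling and any collapsing of identifiers, the tool and settings are not given in the sources used. The deposited values are whole-number read counts per mature miRNA and precursor, per the file headers, whose control columns are spelled W118. The authors' own p-values, raw and adjusted, and their fold changes are in the same table, with an unstated test.

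The 6 libraries entered 1 edgeR 4.0.16 quasi-likelihood fit (R 4.3.3, TMM scaling, filterByExpr with minimum count 10, 3 residual degrees of freedom), with Benjamini-Hochberg adjustment over all entries at 0.05; an SE is the log2 fold change over the root of F. A second fit used counts summed per precursor, with the 7 other members as 1 sum; its spread was estimated as common to all precursors, which makes its p-values small. The TMM factors ran from 0.877 to 1.16. Intervals for ratios and shares are exact binomial. Scripts were tested on simulated data. Members, lists and alternatives were chosen with earlier results of these data known. All member arms are accounted for; the miRNAs most like miR-978-3p are the 5 with the highest Pearson correlation (log2 CPM, prior count 2). The counts of calls, the miR-978 arms and the miR-978 precursor sum were recomputed with DESeq2 1.42.0 and limma-voom (limma 3.58.1), with upper-quartile, RLE or total-count scaling, without a filter or with one at a mean count of 50, with a replicate block, with the compared groups alone, and without each library. The miR-978 ratio was recomputed with a pseudocount of 0.5, with 3p arms alone and without each library.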

Additional observations from a re-analysis of the deposited data

How the results depend on the processing

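The fall of miR-978-3p kept its direction and its call in both mutants under each of 14 alternatives that gave a value, with log2 fold changes of -8.55 to -3.81 in wh7 and -4.57 to -3.82 in mei-p26. The widest value in wh7 came without wh7 replicate 1, which leaves the library with 0 counts (-8.55), and the narrowest without wh7 replicate 2 (-3.81). With a mean count of at least 50 no member arm was left to test. miR-978-5p lost its call with DESeq2 in mei-p26 (-4.22, adjusted p = 0.0597) and without wh7 replicate 1 in wh7 (-6.83, adjusted p = 0.227). It failed the filter in the fit of only wh7 and w1118 and without any 1 library other than wh7 replicate 1, so that 1 member arm, miR-978-3p, was called there in place of 2. With a library left out, a group keeps 1 library, which the fit assumes to vary like the other groups. The number of member arms called was then 1 in wh7 and 1 to 2 in mei-p26, and it was 1 with DESeq2 in mei-p26. Between the mutants, miR-978-3p ran from -0.31 to 4.20 with libraries left out, with its sign turned without wh7 replicate 2, and it passed under no alternative. Counts of calls over all entries were 23 in wh7 against w1118, 51 in mei-p26 against w1118 and 41 between the mutants, and 9, 26 and 26 with a mean count of at least 50. With libraries left out the count in wh7 ran from 10 without wh7 replicate 1, and 13 without wh7 replicate 2, up to 30. The sum of the other 7 members could be fitted only without a filter.

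The labels give the groups the same replicate numbers and do not say that a number marks a shared batch. The correlation of replicate differences was 0.09 between wh7 and mei-p26, -0.33 between wh7 and w1118 and -0.02 between mei-p26 and w1118. With the replicate block, miR-978-3p was at -5.04 in wh7 and -4.10 in mei-p26, both called, and the counts of calls were 26, 50 and 41. The number of counts limits the rest: outside dme-mir-978 no arm had more than 11 counts in all 6 libraries together.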
